A study of Homo sapiens with 4 samples.

Results

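The genes described here are the mucins MUC1, MUC2, MUC4, MUC5AC, MUC5B, MUC13, MUC16 and MUC20, the mucin-folding enzyme AGR2 and the trefoil peptide TFF3. They were taken by name from the gene column of the array, with all of their gene probes and no control spots. This gave 10 genes of 43317 gene names and 22 probes of 58201. The match by name used no measured value, but the genes were chosen with earlier results of these data known. A probe was detected on at least 1 array for 9 of the 10 genes, MUC16 being the exception.

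The study measured total RNA of HCT116, an established colorectal cancer line, and of A549, an established lung cancer line. Each line was transfected with the microRNA miR-891b or with NC1, the negative control of the study, and the transfection reagent Dharmafect1 was shared by all 4 groups. For each array 100 ng of RNA was labelled with Cy3 and hybridised to a 1-colour Agilent array. The groups were HCT116 with NC1, HCT116 with miR-891b, A549 with NC1 and A549 with miR-891b, with 1 array in each. The time after transfection and the sequence of NC1 are not given in the sources used here.

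Mucins are large glycoproteins whose backbones carry tandem repeats rich in serine, threonine and proline, to which O-linked sugars are attached. MUC2, MUC5AC and MUC5B are secreted and join through disulfide bonds into the gels of mucus, MUC2 above all in the intestine and MUC5AC and MUC5B in the airways. MUC1, MUC4, MUC13, MUC16 and MUC20 stay on the cell surface. AGR2 resides in the endoplasmic reticulum, belongs to the protein disulfide isomerase family and is needed for the production of intestinal mucin, while TFF3 is a small peptide that goblet cells secrete together with their mucin.

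The sequence of the transfected microRNA is shown because its seed (bases 2 to 8 from the 5′ end, in capitals) is the stretch that usually pairs with target transcripts. The mature form is the RefSeq entry of GRCh38.p14.
hsa-miR-891b: uGCAACUUaccugagucauuga
The DNA letters that pair with the whole seed, AAGTTGC, were in 0 of the 22 member probes, read on the probe's own strand. They were in 229 of all 58201 probes (0.393%). Each probe covers only 60 bases of a transcript, so the rest of the transcript was not searched.

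The probes of MUC4 are printed because they fell into separate parts of the transcript and did not give the same difference between the lines. Each sequence runs 5′ to 3′, and capitals mark a run of 12 bases shared by the probes 2, 3 and 4. Positions are on hg19, minus strand, from the array files.
MUC4 probe 1 (chr3:195474164-195474223): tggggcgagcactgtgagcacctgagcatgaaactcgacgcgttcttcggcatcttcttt
MUC4 probe 2 (chr3:195506310-195506369): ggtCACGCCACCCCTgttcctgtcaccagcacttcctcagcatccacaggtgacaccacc
MUC4 probe 3 (chr3:195514760-195514819): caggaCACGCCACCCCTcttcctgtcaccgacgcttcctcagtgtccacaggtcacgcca
MUC4 probe 4 (chr3:195514780-195514839): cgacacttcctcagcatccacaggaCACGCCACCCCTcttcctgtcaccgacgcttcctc
Probes 3 and 4 overlapped by 40 bases and so were not independent. The shared run was in 0 probes of other genes. Set against itself at a distance of 48 bases, the length of the MUC4 repeat unit, probe 2 matched at 10 of 12 bases and probes 3 and 4 at 11 of 12 each. Probe 1 matched at 2 of 12, and the median over all probes on the array was 3. A match at 10 or more bases was seen in 25 of 58201 probes (0.043%). By the positions that the array design gives, probes 4 and 3 start at bases 4391 and 4411 of the transcript, probe 2 at 12237 and probe 1 at 16218, near its 3′ end. A probe in a repeat can bind several stretches of the same transcript, so its signal also depends on how many repeats that transcript holds.

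Levels below are log2 of the processed signal minus the 75th percentile of the same array. "Well above background" is the mark that Feature Extraction, the scanner software, gives a spot. Between 44.7% and 50.3% of all probes had it on each array. Each error after ± is the software's own error of the spot, carried to the difference where one is given. All 22 member probes were printed once, so such an error covers the spot and not the culture, and with 1 array per group no difference within a line has a replicate check or a p-value. Both arrays of a line lay on the same slide and the lines on different slides, so line and slide cannot be told apart. In RNA of whole cultures, fewer expressing cells and less RNA per cell cannot be told apart either.

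The array of HCT116 with miR-891b stood apart by areas of stray signal. A spot counted as lying in such an area where at least 10% of its neighbours that were dim on every other array were bright on this one. These held 10.5% of its gene spots, against 0.0213% to 2.19% on the other arrays. Member probes in such areas were MUC4 probe 3 on the A549 miR-891b array and MUC5AC probe 2 on the HCT116 miR-891b array. The line labels were checked on markers. All 4 of the HCT116 markers (CLDN7, CDX2, EPCAM and CLDN3) were lower in A549 on NC1, with log2 differences of -6.75 to -3.13, and all 6 of the A549 markers were higher there. AKR1B10, an A549 marker, was 4.47 higher with miR-891b than with NC1 in HCT116. On that miR-891b array 4 of the 6 A549 markers were well above background, and AKR1C1 and ALDH1A1 were not. AGR2, a member and not a marker, was not either. In A549 the markers CLDN3, KRT81 and ALDH3A1 differed by 1.03, -1.64 and -1.17, miR-891b minus NC1. Of 7 fibroblast markers COL1A2, COL3A1 and DCN were not well above background on any array, and of 4 leukocyte markers CD3E was not. The summed signal of the fibroblast markers was 145 and 125 in HCT116 with NC1 and miR-891b, and 319 and 782 in A549. Between these A549 arrays LUM differed by 2.14 and THY1 by -1.04, miR-891b minus NC1. The leukocyte sums were 35.6 and 35.4 in HCT116 and 229 and 168 in A549, with CD14 3.82 higher in A549 on NC1. Their part in the differences below was not tested.

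More of these genes were detected in A549 than in HCT116. With NC1, 8 of the 10 genes had a probe well above background in A549 and 4 in HCT116. With miR-891b these numbers were 9 and 4. Over all probes, counted singly and not by gene, 50.1% were well above background in A549 with NC1 and 46.0% in HCT116. With miR-891b these shares were 50.3% and 44.7%. The HCT116 count was near the share of single probes, but a gene can have several probes. The share of all genes with any probe detected was not computed, so the gene counts have no like share beside them. The plot of every probe by array shows the open symbols, not well above background, gathered on the HCT116 side for AGR2, TFF3, MUC5AC, MUC5B and MUC13, and on the A549 side for MUC4 probe 1 and MUC20.

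**Figure D1:**
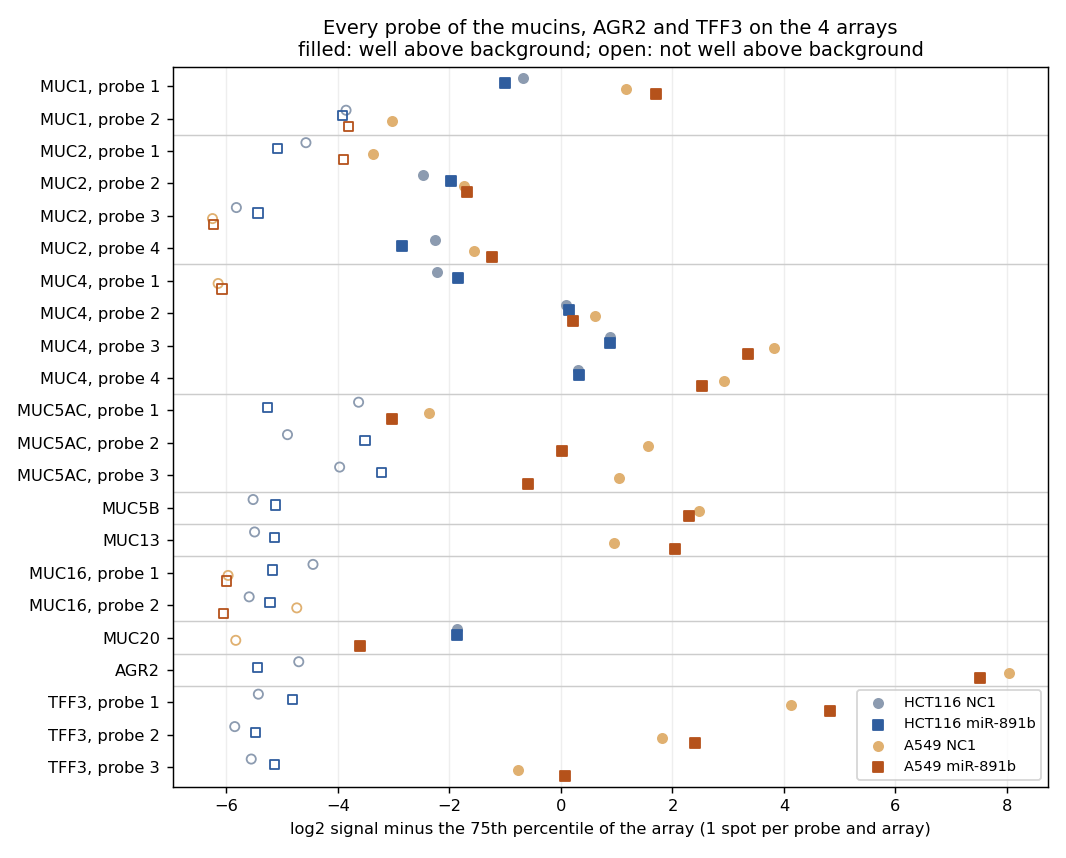
Level of every probe (rows) on the 4 arrays, as log2 signal minus the array's 75th percentile (x axis, 1 spot per point). Circles are NC1 and squares miR-891b; filled symbols are well above background and open ones are not, and AGR2 in A549 stands farthest to the right at 8.03 and 7.52.

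Of the gel-forming mucins, MUC5AC and MUC5B were higher in A549, and MUC2 was low in both lines with a difference under 2-fold on NC1. MUC5B lies in the mucin cluster of chromosome 11, with its probe spanning chr11:1281060-1281239. Its levels were -5.52 and -5.12 in HCT116 with NC1 and miR-891b, both not well above background, and 2.47 and 2.29 in A549. The A549 arrays were thus both above the HCT116 arrays. Where a probe was not well above background in a line, only a lower bound of the fold can be given, taken against the lowest signal that was well above background on that array, or against the dim probe's own where that was higher. For MUC5B this bound was at least 65.0-fold higher in A549 on NC1 and at least 43.0-fold on miR-891b.

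All 3 probes of MUC5AC were dim in HCT116 and measured in A549. Probe 3 gave -3.97 and -3.22 in HCT116, neither well above background, and 1.04 and -0.59 in A549. Probe 2 gave -4.91 and -3.52 in HCT116 and 1.56 and 0.02 in A549. On NC1 A549 was at least 24.1-fold higher by probe 3 and at least 34.4-fold by probe 2. The bounds on the miR-891b arrays were smaller, 5.85-fold and 8.92-fold. The A549 level was lower there, and the lowest HCT116 signal well above background was higher, at -3.14 against -3.55 on NC1. Probe 1 gave -3.63 and -5.26 in HCT116 and -2.38 and -3.03 in A549, a bound of 2.25-fold on NC1 and 1.08-fold on miR-891b.

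MUC2, the main mucin of the colon, was not higher in the colorectal line. Its brightest probe (probe 2, chr11:1092337-1092396) gave -2.48 and -1.98 in HCT116 and -1.74 and -1.68 in A549. Probe 4 gave -2.27 and -2.85 in HCT116 and -1.55 and -1.24 in A549. A549 was 0.73 ± 0.26 higher by probe 2 and 0.71 higher by probe 4 on NC1. On the miR-891b arrays the probes parted, with 0.30 by probe 2 and 1.61 by probe 4. Probe 3 was dim on all 4 arrays. Probe 1 was well above background on the A549 NC1 array alone, at -3.38.

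Among the surface mucins, MUC1 and MUC13 were higher in A549, MUC20 was lower, and MUC16 was not detected. MUC1, widely expressed on glandular epithelia, gave -0.67 and -0.997 in HCT116 and 1.16 and 1.70 in A549 by its brighter probe, which spans chr1:155158652-155159726 (1075 genome bases, more than its 60, so it crosses a splice junction). A549 was higher by 1.83 ± 0.21 on NC1 (3.57-fold) and by 2.69 on miR-891b (6.47-fold). Its other probe was well above background on the A549 NC1 array alone, at -3.03, with a bound of 1.43-fold.

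MUC13, a surface mucin of the gut, was not well above background in the colorectal line. Its probe at chr3:124625256-124625315 gave -5.50 and -5.15 in HCT116 and 0.96 and 2.04 in A549. A549 was at least 22.7-fold higher on NC1 and at least 36.1-fold on miR-891b. MUC16, known as the antigen CA-125, stayed dim, with neither of its probes well above background on any array. Its values ran from -6.06 to -4.45, which gives no level and no fold.

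MUC20, next to MUC4 on chromosome 3, went the other way. Its probe (chr3:195464463-195464522) gave -1.86 on both HCT116 arrays. In A549 it gave -5.83 with NC1, not well above background, and -3.60 with miR-891b. HCT116 was at least 4.26-fold higher on NC1 and 3.35-fold higher on miR-891b. These are signals of 15.1 and 15.7 units in HCT116, so the spot was dim there too. Under normexp background correction, which adds an offset of 50 units, the NC1 bound was -0.35 on the log2 scale and no longer reached 2-fold.

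AGR2 gave the largest bound of the 10 genes on both pairs of arrays. Its probe spans chr7:16837274-16839382. It gave -4.70 and -5.45 in HCT116, not well above background, and 8.03 and 7.52 in A549. In signal units these were 2.11 and 1.31 in HCT116 and 19534 and 13588 in A549. A549 was at least 3055-fold higher on NC1 and at least 1609-fold higher on miR-891b. The AGR2 probe was thus dim in HCT116 under either transfection.

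All 3 probes of TFF3 gave the same pattern. Its brightest probe gave -5.43 and -4.81 in HCT116, not well above background, and 4.13 and 4.82 in A549. Probe 2 (chr21:43733595-43733654) gave 1.81 and 2.41 in A549 and probe 3 gave -0.77 and 0.07, and neither was well above background in HCT116. On NC1 the bounds were at least 205-fold by probe 1, 41.0-fold by probe 2 and 6.86-fold by probe 3. On miR-891b they were 248-fold, 46.7-fold and 9.22-fold.

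Counted by gene, with its brightest probe and bounds included, A549 was higher by 2-fold or more for 7 of the 9 members detected on NC1 and lower for 1. Over all genes so counted, 14.2% were higher and 17.6% lower. On the miR-891b arrays the count of members was again 7 higher and 1 lower of 9, beside 14.1% and 22.3% of all genes. Where both NC1 arrays gave a level, 2 of 3 members were higher, with a median of 1.83 against -0.10 over all 19218 such genes. Of all such genes 11.1% were higher by 2-fold or more. These counts take MUC4 by its probe 3, and another MUC4 probe, described below, went the opposite way. Without MUC4, 6 of 8 members were higher and 1 lower on NC1 and also on miR-891b, and 1 of 2 was higher where both NC1 arrays gave a level.

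**Figure D2:**
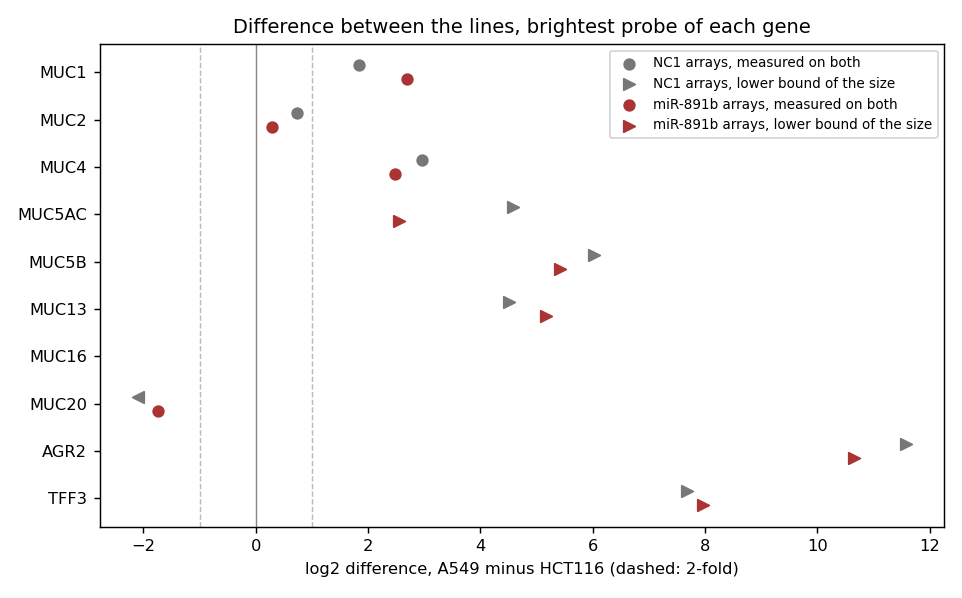
Difference A549 minus HCT116 (log2, x axis) for the brightest probe of each gene, on the NC1 arrays (grey) and the miR-891b arrays (red). Circles are genes measured in both lines and triangles are lower bounds of the size; MUC20 is the member to the left of 0, MUC2 lies inside the 2-fold lines and MUC16 has no value.

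An additive model put cell line and transfection in a single limma fit over all 4 arrays and 22711 genes, which leaves 1 residual degree of freedom. It treats the line difference as equal under both transfections. Genes entered it when well above background on at least 2 arrays, and 15.5% of all genes were called higher in A549 and 16.4% lower. By this fit, with Benjamini-Hochberg adjustment, MUC4 (by probe 3) and MUC1 were higher in A549 and MUC2 was not called, out of the 3 members whose brightest probe was well above background on all 4 arrays. The estimates were 2.72 ± 0.26 for MUC4 (limma, adjusted p = 0.0045), 2.26 ± 0.31 for MUC1 (adjusted p = 0.0116) and 0.52 ± 0.25 for MUC2 (adjusted p = 0.192), with the standard error after ±. AGR2, TFF3, MUC5B, MUC13 and MUC5AC entered through their A549 arrays alone. MUC20 entered through HCT116 and the A549 miR-891b array. Their fitted differences rest on spots that were not well above background, so they are not given, and the bounds above stand in their place.

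MUC4 could not be given a single direction. Probe 3, the brightest, gave 0.87 on both HCT116 arrays and 3.83 and 3.36 in A549. Probe 4, which overlaps it, gave 0.30 and 0.32 in HCT116 and 2.92 and 2.54 in A549. By these probes A549 was 7.76-fold and 6.15-fold higher on NC1, and 5.60-fold and 4.65-fold higher on miR-891b.

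Probe 2, in the repeats as well but 8391 bases away on the genome, gave 0.10 and 0.15 in HCT116 and 0.62 and 0.21 in A549. Its difference was 0.52 on NC1 and 0.06 on miR-891b. Probe 1, near the 3′ end and 32087 bases from probe 2, gave -2.23 and -1.85 in HCT116. In A549 it gave -6.15 and -6.08, not well above background on either array. So by probe 1 HCT116 was at least 3.31-fold higher on NC1 and at least 4.25-fold on miR-891b, opposite to probes 3 and 4.

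When single probes were fitted in place of genes, a choice made after the values were seen, limma called probe 3 higher in A549 (2.72, adjusted p = 0.00324) and probe 4 too (2.42, adjusted p = 0.00426). Probe 2 was not called (0.29, adjusted p = 0.439). Probe 1 entered through HCT116 alone, so its difference is the bound given above, with no test. Over the 29650 probes in that fit, 16.4% were called higher and 16.9% lower. With the mean of its probes in place of the brightest, including the dim spots of probe 1, MUC4 was not called (0.34, adjusted p = 0.351). Under normexp correction the difference of probe 1 was -0.30 and that of probe 3 was 2.47. Probe 1 had 11.7 and 15.8 signal units in HCT116, below the offset of 50 that normexp adds. Which transcripts or alleles the lines carry was not tested.

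**Figure D3:**
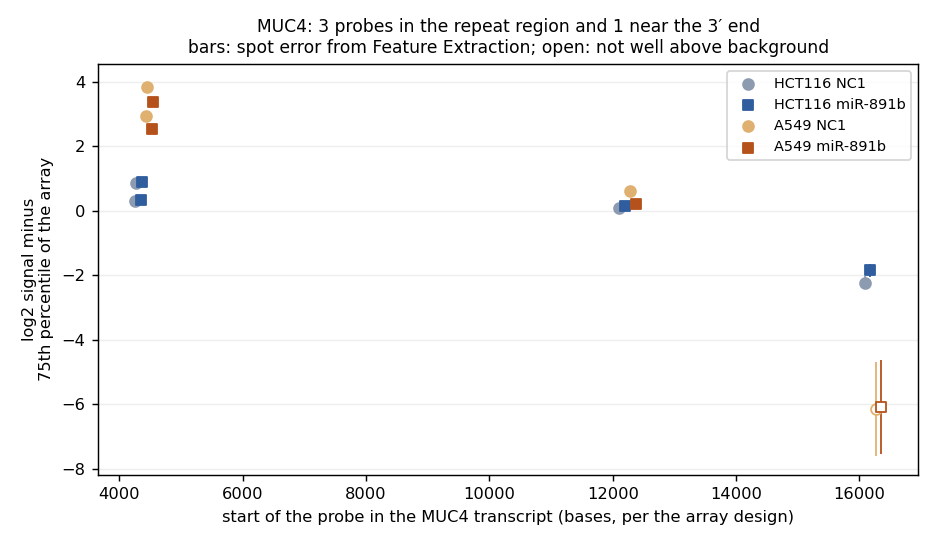
Level of the 4 MUC4 probes (log2 signal minus the array's 75th percentile, y axis) by their start in the transcript in bases (x axis, points moved slightly apart), with bars for the spot error and open symbols for spots not well above background. A549 (orange) is above HCT116 (blue) at the left, the lines are close at 12237, and at 16218 A549 is below and not well above background.

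The genes around MUC4 and MUC20 were looked at after these values were seen. Within 100000 bases of their probes on chromosome 3 (195365657 to 195606016), the 16 other probes well above background on an NC1 array gave 0 that were 2-fold higher in A549 and 1 that was lower, a probe of the kinase gene TNK2. Of the 5 member probes there, 2 were higher (MUC4 probes 3 and 4) and 2 lower (MUC4 probe 1 and MUC20). The probes of MUC20 and of MUC4 probe 1, both lower in A549, lie 9642 bases apart.

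On chromosome 11 (1011179 to 1331860) MUC2, MUC5AC and MUC5B had 6 of 7 mapped probes well above background on an NC1 array, and 3 of these were at least 2-fold higher in A549. Of 13 probes of other genes there 11 were, with 1 at least 2-fold higher, a probe of TOLLIP. The 3 member probes were of MUC5AC and MUC5B. For both stretches, the share of all genes by their brightest probe was 14.2% higher and 17.6% lower. No share over all probes was computed.

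With miR-891b the members differed from NC1 by under 2-fold in HCT116 and in both directions in A549. In HCT116 0 of 4 members, all measured on both arrays, reached 2-fold. Of all genes so measured 1.16% were higher and 0.843% lower by 2-fold or more, or 4.34% and 1.22% with bounds. In A549 MUC13 was higher and MUC5AC lower by 2-fold or more, 1 and 1 of 9 members, beside 4.91% and 5.71% of all genes, or 1 and 1 of the 8 measured on both arrays, beside 4.0% and 5.57%. The median change of the 8 members measured on both A549 arrays was -0.06, and that of all 21336 such genes was also -0.06. In HCT116 it was 0.00 over the 4 members and -0.04 over all genes.

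MUC5AC was lower with miR-891b in A549 by all 3 of its probes. The change was -1.53 ± 0.21 by probe 2 (2.90-fold lower), -1.63 ± 0.21 by probe 3 (3.09-fold lower) and -0.65 ± 0.29 by probe 1. In signal units probe 2 had 219.9 with NC1 and 75.4 with miR-891b, and probe 3 had 153.8 and 49.4. Probe 2, at 13.6% nearby stray spots on the HCT116 miR-891b array, was in no such area on the A549 arrays. Under normexp correction the changes of probes 2 and 3 were -1.0 and -0.93.

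MUC13 had signals of 144.9 units with NC1 and 305.2 with miR-891b in A549, a difference of 1.08 ± 0.20 (2.12-fold). Under normexp correction it was 0.89, below 2-fold. TFF3 was higher by 0.68, 0.60 and 0.84 by its 3 probes, each more than 2 spot errors. MUC1 was higher by 0.54 ± 0.20 in A549 and differed by -0.32 ± 0.23 in HCT116.

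AGR2 differed by -0.51 ± 0.20 with miR-891b in A549 (1.43-fold lower). The change was -0.10 under quantile normalization alone and -0.07 under normexp correction with quantile normalization. MUC5B differed by -0.18 ± 0.20, within its spot error. MUC4 differed by -0.47 to -0.38 over its 3 measured probes in A549, which share repeat sequence. In HCT116 the same probes differed by 0.00 to 0.05, and probe 1 by 0.38 ± 0.27.

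MUC2 differed by 0.06 and 0.31 by its probes 2 and 4 in A549. In HCT116 the probes had opposite signs, 0.50 ± 0.28 by probe 2 and -0.58 ± 0.37 by probe 4. MUC20 differed by 0.01 in HCT116, and in A549 it was at least 1.28-fold higher with miR-891b. Over all member probes, the A549 changes ran from -1.63 to 1.08, with 7 of 15 higher and 10 past 2 spot errors, beside 36.7% of all probes printed once and measured on both arrays. These 10 include all 3 probes of MUC5AC and all 3 of TFF3. Probes of the same gene are not independent, so the 2 shares are not directly comparable. The HCT116 changes ran from -0.58 to 0.50, with 6 of 8 higher and 0 past 2 spot errors, beside 16.6% of all such probes.

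**Figure D4:**
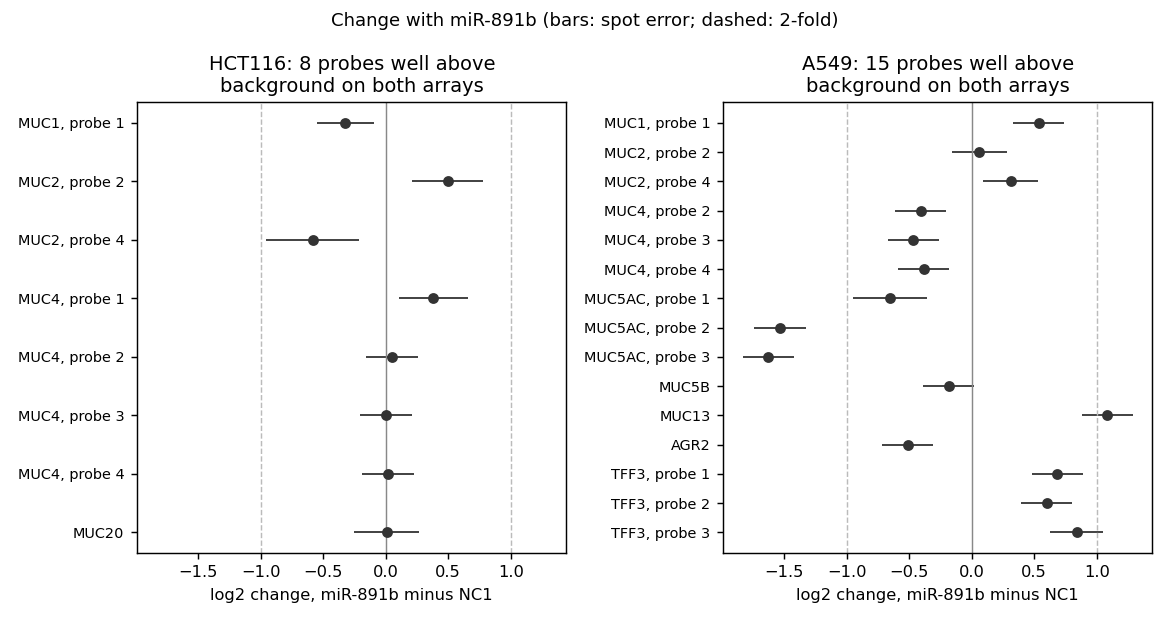
Change of each member probe with miR-891b (log2, miR-891b minus NC1, x axis) in HCT116 (left, 8 probes) and A549 (right, 15 probes), with bars for the spot error of the difference and dashed lines at 2-fold. MUC5AC probes 2 and 3 lie below the lower line and MUC13 just above the upper line in A549, and no probe passes either line in HCT116.

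In the additive fit no member was called for miR-891b. Limma called 0 of 22711 genes at an adjusted p under 0.05 (0% of all genes in each direction), with 1214 genes at an unadjusted p under 0.05 and a smallest adjusted p of 0.793. Of the 9 members fitted, TFF3 alone had an unadjusted p under 0.05, at 0.65 ± 0.23 (limma, adjusted p = 0.793). The estimates for MUC5AC, MUC13 and AGR2 were -0.44, 0.72 and -0.63. All 4 of these average A549 with HCT116 arrays on which the genes were not well above background, so they are not the A549 change.

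The related genes were taken from lists for mucus-secreting cells. Of 12 other mucins, 5 were detected on an NC1 array, with 0 higher and 1 lower in A549 by 2-fold or more. OVGP1, MUC6 and MUC3A differed by 0.30, -0.26 and -0.08, and the median was -0.08. In A549 the change of the 3 measured had a median of 0.02. Over all genes detected on an NC1 array, 14.2% were higher and 17.6% lower, so 5 genes are too few to set this list apart.

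Of the 4 trefoil and AGR relatives, 3 were higher in A549 by 2-fold or more on NC1, bounds included, beside 14.2% of all genes. On miR-891b 1 was higher, beside 14.1% of all genes, and TFF2 and AGR3 had bounds of 1.22-fold and 1.83-fold there. TFF1, the trefoil peptide of the gastric surface, was 4.66 higher, and TXNDC12, the relative of AGR2 that most cells express, was 0.18 higher, both on NC1. With miR-891b 0 of 4 reached 2-fold in A549, with a median of -0.15.

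The goblet cell list held 20 secretory products and regulators. On NC1, 6 were higher and 1 lower in A549 of 15 detected, bounds included, beside 14.2% and 17.6% of all genes. SPDEF, a transcription factor of goblet cell maturation, was 4.97 higher, and the pioneer factors FOXA2 and FOXA1 were 7.27 and 3.95 higher. FCGBP, a mucus protein that binds IgG, was 2.57 higher. The median of the 11 measured in both lines was 0.24 and that of all genes was -0.10. ERN2, FOXA3, SCGB1A1, CREB3L4 and SCGB3A1 were lower in A549 by under 2-fold, at -0.64, -0.60, -0.43, -0.22 and -0.17. CREB3L1 and KLF4 were higher by 0.40 and 0.24. The goblet cell genes ATOH1, CLCA1, ZG16, REG4 and ITLN1 were not well above background on either NC1 array. GFI1, a transcription factor of the intestinal secretory lineage, was at least 12.1-fold higher in HCT116. BCAS1, SPINK4 and BPIFB1 were well above background in A549 alone. On NC1 they were at least 170-fold, 3.90-fold and 1.92-fold higher there.

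SPDEF levels were -1.99 and -2.13 in HCT116 and 2.98 and 1.71 in A549. It was the 1 gene of 13 measured in this list that passed 2-fold with miR-891b in A549, at -1.26. Of all genes measured on both A549 arrays, 4.0% were higher and 5.57% lower by 2-fold or more. In HCT116 0 of 11 passed 2-fold, and SPDEF differed by -0.14.

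The O-glycosylation list held 25 enzymes that start, extend or cap mucin sugars. Of 22 detected on NC1, 9 were higher and 8 lower in A549 by 2-fold or more, beside 14.2% and 17.6% of all genes. The core-branching enzyme GCNT3 was 5.40 higher and GALNT10, which starts the chains, was 2.38 higher. GALNT6, of the same family, and the sialyltransferase ST6GALNAC2 were lower, at -2.50 and -2.66. ST6GALNAC1 was at least 43.0-fold higher in A549, while GALNT3 was at least 12.6-fold higher in HCT116.

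The lines thus differed in both directions in this list, with a median of 0.86 over 18 genes measured in both. With miR-891b ST6GALNAC2 was 1.46 higher in A549, the 1 of 19 measured that passed 2-fold, beside 4.0% of all such genes higher and 5.57% lower. The median of the list was 0.17. In HCT116 FUT3, a fucosyltransferase, was lower at -1.13, the 1 of 21 that passed, beside 1.16% of all such genes higher and 0.843% lower.

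The protein disulfide isomerases, the family of AGR2, had no difference between the lines of the size of AGR2. Of 9 measured, 0 were higher and 2 lower in A549 by 2-fold or more on NC1, beside 11.1% and 16.2% of all such genes. Their median was -0.56. ERP29 and PDIA5 differed by -1.44 and -1.02, and PDIA4 and P4HB by -0.72 and -0.81. On the miR-891b arrays the median was 0.44, with 1 higher and 0 lower, beside 11.4% and 20.7% of all such genes. The change with miR-891b in A549 had a median of 0.68, and PDIA5 passed 2-fold at 1.06, beside 4.0% of all such genes higher. The change of AGR2 there was -0.51. In HCT116 the median was -0.29 and 0 passed.

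**Figure D5:**
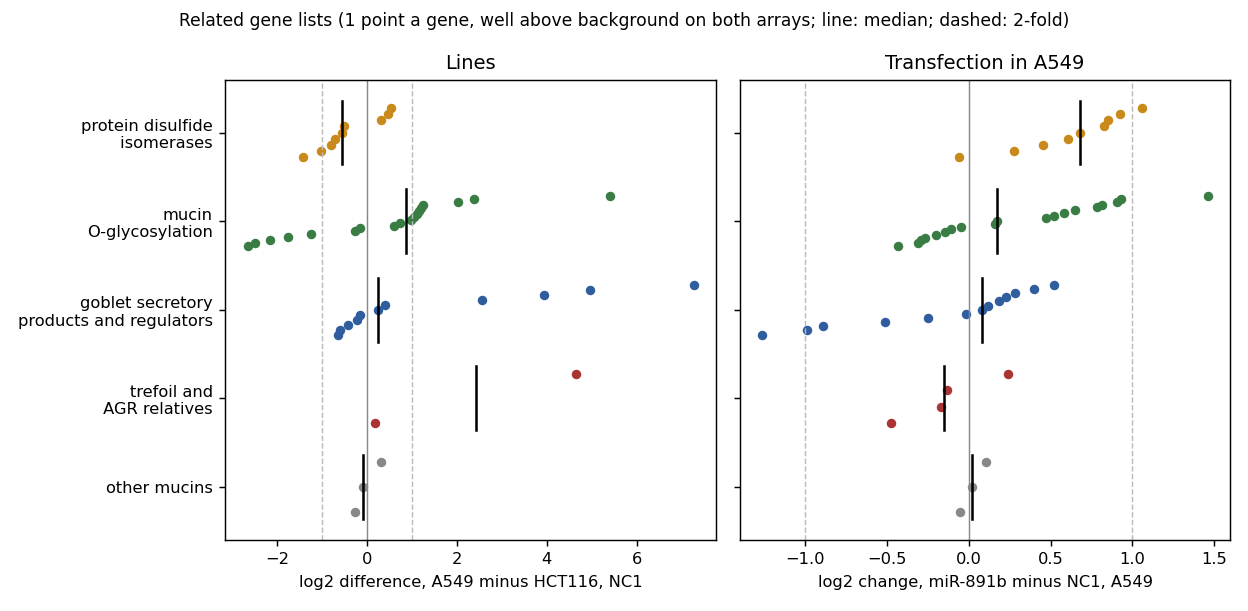
Genes of the related lists (1 point a gene, only genes well above background on both arrays compared), as the difference A549 minus HCT116 on NC1 (left) and the change with miR-891b in A549 (right), both in log2. Vertical bars are medians, at -0.56 and 0.68 for the protein disulfide isomerases and 0.86 and 0.17 for mucin O-glycosylation, and dashed lines mark 2-fold.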

How the data were processed

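Total RNA of transfected cells was hybridised to 4 Agilent 1-colour arrays, 1 array per group, with groups taken from the sample titles. Per the file headers and the submitters' processing notes, scans were quantified with Agilent Feature Extraction 11.5.1.1, which subtracted background within each array, and gives probe positions on hg19. Intensity values in the deposited scanner files are unscaled between arrays. The authors' deposited value table holds log2 values; how they were made is not given in the sources used here, and they differed from the values used here by a median of at most 0.0069 per array, so scale and direction matched.

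Spots with an outlier mark were dropped, log2 processed signal was averaged per probe, and the array's 75th percentile over gene probes subtracted (54.9 to 74.8 intensity units). The number of arrays limits the precision. A gene is its probe with the highest mean. Differences count at 2-fold or more. A probe not well above background on an array gives a bound only. The additive fit used limma 3.58.1 in R 4.3.3 on genes well above background on at least 2 arrays. It was also run on values simulated from its own fit. These are additive by construction, so they cannot test that assumption. Other steps ran in Python 3.11.15. How many cultures each array stands for, and whether they were grown separately, is not given. Alternatives were normexp with quantile normalization, quantile normalization, median scaling, the authors' values, no filter on dim probes, the mean over probes, leaving out stray areas and a 1.5-fold threshold.

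The members and lists were chosen with earlier results of these data known. Named were all members with every probe and genes of each list other than the markers. These were up to 4 genes with the largest line difference and up to 4 with the largest change past 2-fold in each line. Only genes measured on both arrays were taken. Markers were named in part, with their values in view. GFI1, BCAS1, SPINK4, BPIFB1, ST6GALNAC1 and GALNT3, each measured in 1 line, TOLLIP, TNK2, TFF2 and AGR3 were picked with their values in view. So were the goblet cell genes named as differing by under 2-fold or as not well above background. Symbols follow the array design, and all 10 members are current RefSeq symbols.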

Additional observations from a re-analysis of the deposited data

Results flagged for a closer look

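For 3 genes, probes measured on all 4 arrays had changes with miR-891b of opposite sign in the 2 lines. The change in A549 minus that in HCT116 was 0.86 for MUC1 probe 1, 0.89 for MUC2 probe 4, and -0.46, -0.47 and -0.40 for MUC4 probes 2, 3 and 4. With 1 array per group these differences were not tested, and 0 of the 8 HCT116 member changes passed 2 spot errors. The MUC4 changes in HCT116 were near 0, at 0.05, 0.00 and 0.02, each with an error of 0.21. For MUC2 probe 4 the A549 change did not pass 2 spot errors either, and MUC2 probe 2 was higher in both lines. How often the signs differed over all probes was not counted.

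Negative control spots, which should bind no transcript, were well above background in 11 of 308 cases on the HCT116 miR-891b array and in 2 of 308 on the A549 miR-891b array. The NC1 arrays had 0 each.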

How the results depend on the processing

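The 45 member-probe differences gave 265 values under 6 alternative settings. Many of these could hardly differ from the main setting. Leaving out stray areas dropped probes but left the other 40 values as they were. Removing the filter changed only values given as bounds, and the authors' values were nearly those used here. The settings that could move the values were thus mainly the other normalizations. None of the differences past 2-fold changed sign, and 3 values near 0, of MUC4 probe 3 and MUC20 in HCT116, lost theirs (at most 0.0995 in size). In these settings 6 dropped below 2-fold, all under normexp correction with quantile normalization, and 2 rose above it with no filter on dim probes (MUC2 probe 1 between the lines at 1.20, MUC20 in A549 at 2.23). Under normexp 1 member in place of 2 passed 2-fold with miR-891b in A549 (MUC13 at 0.89). MUC5AC probe 3, its brightest in the main setting, was at -0.93 too, and its probe 2 at -1.0 gave the member that remained. Normexp also took MUC4 probe 1, MUC20, MUC5AC probe 1 and TFF3 probe 3 below 2-fold between the lines, at -0.30, -0.35, 0.16 and 0.64. With no filter on dim probes the additive fit called 6 genes for miR-891b, none of them a member, in place of 0. It called 7249 genes between the lines, and 4990 to 9381 under the alternatives.

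No paired analysis was possible because each group had 1 array and the cell line is itself a term of the fit. Leaving out an array would leave no residual degree of freedom. Signals near background limit the values of MUC16, MUC2, MUC20 and MUC4 probe 1.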
